A study of Homo sapiens with 11 samples.

Results

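Cholesterol genes were followed across 11 one-colour Affymetrix expression arrays of IMR32 cells, a human neuroblastoma line with amplified MYCN. The genes were HMGCS1, IDI1, SQLE, MSMO1, DHCR7, SREBF2, INSIG1 and FDFT1, and every probe set whose current or former symbol was one of these 8 was kept. That gave 19 of the 54675 probe sets on the array, for 7 of the 8 genes. FDFT1, the squalene synthase gene, had no probe set named in the annotation used and was not analysed here. HMGCS1 and DHCR7 had 2 probe sets each, MSMO1 had 1, INSIG1 and SREBF2 had 3 each, and SQLE and IDI1 had 4 each.

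The labels gave 6 arrays of cells transduced with lentivirus carrying the MYCN hairpin shMYCN#3 (A and B at each of 24, 48 and 72 hours), 3 arrays of cells given the control hairpin virus SHC002 (1 at each of the same hours), and 2 arrays of cells without virus at 0 hours. All cells were one line, grown in DMEM with 10% FCS, and both hairpins came from the same supplier. Whether A and B are separate cultures is not fully stated in the labels. The p-values therefore rest on array-to-array spread that may be technical. By its brightest probe set, MYCN mRNA itself did not pass the test. The MYCN log2 fold change over control virus, averaged over the 3 hours, was -0.02 ± 0.080 (SE, limma adjusted p = 0.866). The signal of that probe set was 4567 to 5624 on the hairpin arrays and 5055 to 5390 on the control virus arrays. Other MYCN probe sets were not examined here. The arrays are therefore called "labelled shMYCN" throughout.

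Signals are linear intensities on a common scale: a trimmed mean over 96 percent of each array's probe sets came to 100. A signal is therefore relative to the rest of that array's RNA, and fewer cells of a type cannot be told apart from less RNA per cell. Median signals were 14.9 to 16.7, and 3'/5' ratios were 0.970 to 1.07 for GAPDH and 1.18 to 1.33 for actin. Array A at 48 hours stood apart in its added poly-A control transcripts, which were 2.37 times the mean of the control virus and no virus arrays. Arrays A and B at 48 hours were also less alike over the genes tested than replicates of other groups. The SD of their log2 differences was 0.271, against 0.172 without virus, 0.181 at 24 hours and 0.186 at 72 hours. Of 10 noradrenergic neuroblast markers, 9 were named and 8 passed the filter on dim genes. Their summed signal was 11596 to 13485 on the labelled shMYCN arrays, 11400 to 12754 on the control virus arrays and 11367 to 12106 without virus, but most of that sum is MYCN and GATA3, and single markers moved apart. STMN2, a gene of growing neurites, read 119.4 to 1106.4 on the labelled shMYCN arrays, against 67.4 to 81.0 with control virus and 80.5 to 90.2 without virus, and CHGA read 1398 to 1733, against 1102 to 1366 and 1252 to 1303; neither overlapped the other groups. DBH, the dopamine beta-hydroxylase gene, read 85.9 to 198.9, against 171.4 to 216.8 and 157.8 to 199.0, with overlap, and TH, the tyrosine hydroxylase gene, was near background at 0.6 to 25.4 over all arrays. Summed leukocyte markers were 50.5 to 61.8, 49.3 to 56.3 and 47.3 to 64.6 in the same order of groups, and no Schwann cell marker passed the filter. Endothelial and fibroblast markers summed to 458 to 709 on the labelled shMYCN arrays, 339 to 409 with control virus and 359 to 360 without virus. Nearly all of that was COL1A1, at 407 to 659, 292 to 354 and 309 to 317; the part of these markers in the results below was not tested.

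Cholesterol is made from acetyl-CoA, first along the mevalonate arm, which also feeds ubiquinone, dolichol and protein prenylation, and then along the sterol arm that closes the rings. The genes are switched on by SREBP2, the product of SREBF2, a membrane-bound transcription factor that is held in the endoplasmic reticulum by SCAP and INSIG proteins when sterols are plentiful and is cut free when they are scarce. The same factor drives uptake of lipoprotein cholesterol, and INSIG1 is itself among its targets. Neurons and neuroblastoma cells need cholesterol for the membranes of their growing processes.

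The upstream sequence of 4 of the genes is shown because HMGCS1 and MSMO1, enzymes of the same pathway, moved in opposite directions, while SREBF2 and INSIG1 encode its control. Each is the 250 bases before the gene's outermost start in RefSeq on GRCh38.p14, 5′ to 3′ on the gene's own strand. Capitals mark matches on either strand to the letters CACNCCAC (a core of sterol elements, which SREBP proteins bind), CACGTG (an E-box, read by MYC family proteins among others) or CCAAT (the box bound by NF-Y, a known partner of SREBP proteins). The windows are chr5:43313413-43313662 on the minus strand for HMGCS1, chr4:165327419-165327668 on the plus strand for MSMO1, chr22:41832855-41833104 on the plus strand for SREBF2 and chr7:155297628-155297877 on the plus strand for INSIG1.
HMGCS1: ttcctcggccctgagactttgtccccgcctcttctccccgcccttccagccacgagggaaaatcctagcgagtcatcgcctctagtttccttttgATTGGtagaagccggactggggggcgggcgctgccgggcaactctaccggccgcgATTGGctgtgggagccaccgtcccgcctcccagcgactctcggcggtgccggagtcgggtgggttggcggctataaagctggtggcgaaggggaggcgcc
MSMO1: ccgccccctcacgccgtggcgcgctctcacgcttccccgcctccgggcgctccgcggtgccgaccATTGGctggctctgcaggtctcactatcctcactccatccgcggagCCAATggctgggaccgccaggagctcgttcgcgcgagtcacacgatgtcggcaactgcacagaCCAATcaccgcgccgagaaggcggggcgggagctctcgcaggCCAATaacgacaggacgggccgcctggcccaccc
SREBF2: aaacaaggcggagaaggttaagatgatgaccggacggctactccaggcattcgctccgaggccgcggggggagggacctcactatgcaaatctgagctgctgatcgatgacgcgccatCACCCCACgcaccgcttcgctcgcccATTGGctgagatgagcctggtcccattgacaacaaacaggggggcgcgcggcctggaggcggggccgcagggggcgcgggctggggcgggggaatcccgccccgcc
INSIG1: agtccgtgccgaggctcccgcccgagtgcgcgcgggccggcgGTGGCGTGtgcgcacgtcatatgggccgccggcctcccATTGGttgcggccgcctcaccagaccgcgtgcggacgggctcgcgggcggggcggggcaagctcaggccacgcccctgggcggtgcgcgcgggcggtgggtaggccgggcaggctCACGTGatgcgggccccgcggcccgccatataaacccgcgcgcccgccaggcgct
INSIG1 held a sterol element core 208 to 201 bases before its start, an E-box 55 to 50 bases before it and a CCAAT box. SREBF2 held a sterol element core 132 to 125 bases before its start and a CCAAT box 106 to 102 bases before it. HMGCS1 held 2 CCAAT boxes and MSMO1 held 4, with neither of the other letters. These matches did not overlap each other. Over 35116 RefSeq windows of the same length from 27305 genes, 4.87 percent held the sterol element core, 6.34 percent the E-box and 32.0 percent the CCAAT box. A match is a description of letters and not a binding site, and the lack of a match does not show that a site is absent.

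Against control virus, the pathway did not move one way on the arrays labelled shMYCN. HMGCS1 and DHCR7 were lower, INSIG1 and MSMO1 were higher, and SQLE, IDI1 and SREBF2 did not pass the test as fitted. Averaged over the 3 hours, 4 of the 7 genes passed an adjusted p of 0.05, 2 in each direction, where 37.9 percent of all 11865 genes tested passed (22.2 percent higher and 15.8 percent lower). The median log2 fold change was -0.064 over the 7 genes and 0.037 over all genes tested. The test was limma on log2(signal + 16), with the brightest probe set of each gene, the dimmest 40 percent of genes left out, and Benjamini-Hochberg adjustment over all genes tested; folds of low signals are understated on this scale.

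**Figure D1:**
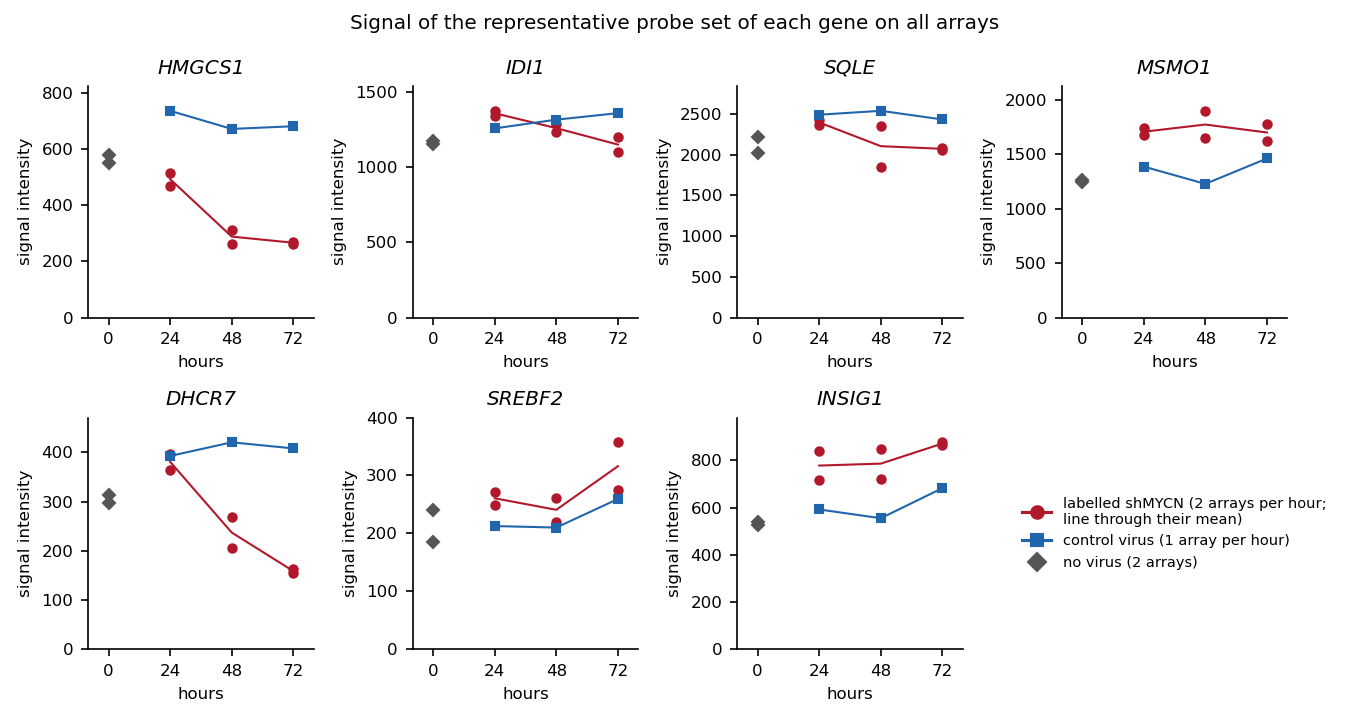
Signal of the representative probe set of each of the 7 genes on every array (linear scale from 0) by hours after virus; each point is 1 array, and lines join the mean of 2 labelled shMYCN arrays or the single control virus array of each hour. HMGCS1 at every hour and DHCR7 at 48 and 72 hours lie below every control virus and no virus array, whereas all labelled shMYCN points of MSMO1 and INSIG1 lie above them.

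HMGCS1, the cytosolic HMG-CoA synthase that feeds HMG-CoA reductase, had the largest fold change of the 7. Its signal on the labelled shMYCN arrays was 470.7 (A) and 516.6 (B) at 24 hours, 313.9 and 263.4 at 48 hours, and 263.0 and 270.7 at 72 hours. With control virus it was 737.1, 672.5 and 682.1 at those hours, and without virus 578.6 and 550.4. All 6 labelled shMYCN arrays lay below all 3 control virus and both no virus arrays. The mean log2 fold change over control virus was -1.02 ± 0.068 (SE, limma adjusted p = 1.08e-06), a fold of 0.494, with a 95% interval of -1.17 to -0.87. The second HMGCS1 probe set gave 187.1 and 191.6, 107.3 and 110.7, and 131.7 and 118.3 on the labelled shMYCN arrays, against 221.3, 297.2 and 315.8 with control virus. It too had no overlap between these groups, and its log2 fold change was -0.92 ± 0.057 (limma adjusted p = 5.55e-05 over 41091 probe sets). At 24 hours, however, this second probe set was at the no virus level of 192.4 and 187.0.

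IDI1, the isomerase that makes the second of the isoprenoid building blocks, did not pass the test. Its representative probe set read 1097 to 1372 on the labelled shMYCN arrays, 1256 to 1357 with control virus and 1150 to 1173 without virus, and the groups overlapped. The log2 fold change over control virus was -0.064 ± 0.056 (limma adjusted p = 0.395), with a 95% interval of -0.19 to 0.06. The 4 IDI1 probe sets differed, and 3 carry the manufacturer's suffix for probes that may bind related transcripts. One of those gave -0.21 ± 0.059 (limma adjusted p = 0.0497), and the others lay between -0.11 and 0.05.

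SQLE is squalene epoxidase, an enzyme of the sterol arm. Its signal was 2426 and 2363 at 24 hours, 1850 and 2357 at 48 hours, and 2084 and 2059 at 72 hours on the labelled shMYCN arrays, against 2490, 2537 and 2431 with control virus and 2211 and 2017 without virus. The labelled shMYCN arrays lay below the control virus arrays without overlap, by a narrow margin, but overlapped the no virus arrays. The log2 fold change over control virus was -0.19 ± 0.077 (limma adjusted p = 0.0766), with a 95% interval of -0.36 to -0.02. All 4 SQLE probe sets had negative values, from -0.24 to -0.06, and none passed. The SQLE value passed under 3 of 22 alternatives: with median scaling, with its probe sets averaged, and without the labelled shMYCN array B at 48 hours (limma adjusted p = 0.00496, the lowest of the 22, whose highest was 0.291).

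MSMO1, the sterol C4-methyl oxidase formerly called SC4MOL, was higher. Its single probe set read 1673 and 1738 at 24 hours, 1897 and 1645 at 48 hours, and 1774 and 1623 at 72 hours on the labelled shMYCN arrays. Control virus arrays read 1385, 1227 and 1460, and no virus arrays 1262 and 1240. All 6 labelled shMYCN arrays lay above the other 5. The log2 fold change over control virus was 0.34 ± 0.064 (limma adjusted p = 0.00143), a fold of 1.27.

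DHCR7, the 7-dehydrocholesterol reductase that ends one branch of the sterol arm and is mutated in Smith-Lemli-Opitz syndrome, was lower at the later hours. It read 396.9 and 365.0 at 24 hours, 206.1 and 268.1 at 48 hours, and 154.3 and 163.0 at 72 hours on the labelled shMYCN arrays. The control virus arrays gave 392.8, 420.6 and 408.2, and the no virus arrays 297.7 and 312.5. At 24 hours the labelled shMYCN arrays were level with control virus and above no virus, and by 48 hours they were below both. The mean log2 fold change over control virus was -0.71 ± 0.081 (limma adjusted p = 5.15e-05), a fold of 0.613, and -0.65 ± 0.098 (limma adjusted p = 0.00354) by the second DHCR7 probe set. Without the control virus array at 72 hours, that hour dropped out and the mean covered 24 and 48 hours alone. The DHCR7 value was then -0.42 (limma adjusted p = 0.0150), the highest adjusted p of the 22 alternatives, whose lowest was 7.76e-07.

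SREBF2, which encodes the transcription factor, was not called. It read 220.4 to 357.3 on the labelled shMYCN arrays, 210.0 to 259.3 with control virus, and 241.1 and 184.4 without virus, so the groups overlapped. The log2 fold change over control virus was 0.24 ± 0.10 (limma adjusted p = 0.0926), with a 95% interval of 0.01 to 0.46, and the other SREBF2 probe sets gave 0.08 and -0.12. It passed under 2 of 22 alternatives, without the labelled shMYCN array A at 48 hours (limma adjusted p = 0.0374, the lowest of the 22, whose highest was 0.595) and without A at 72 hours.

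INSIG1, which retains the SREBP2 precursor in the endoplasmic reticulum, was higher by its brightest probe set. That probe set read 717.2 and 838.3 at 24 hours, 849.1 and 722.9 at 48 hours, and 865.9 and 876.3 at 72 hours on the labelled shMYCN arrays. Control virus arrays gave 591.7, 554.6 and 682.1, and no virus arrays 540.4 and 527.7, so there was no overlap. The log2 fold change over control virus was 0.40 ± 0.070 (limma adjusted p = 9.15e-04), a fold of 1.32. The probe sets of INSIG1 disagreed. The second gave 0.32 ± 0.096 (limma adjusted p = 0.0613) and the third -0.05 ± 0.083 (limma adjusted p = 0.764). When all its probe sets were averaged, INSIG1 was still called, at 0.22 (limma adjusted p = 0.0306, the highest of its 22 alternatives, whose lowest was 6.45e-05).

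**Figure D2:**
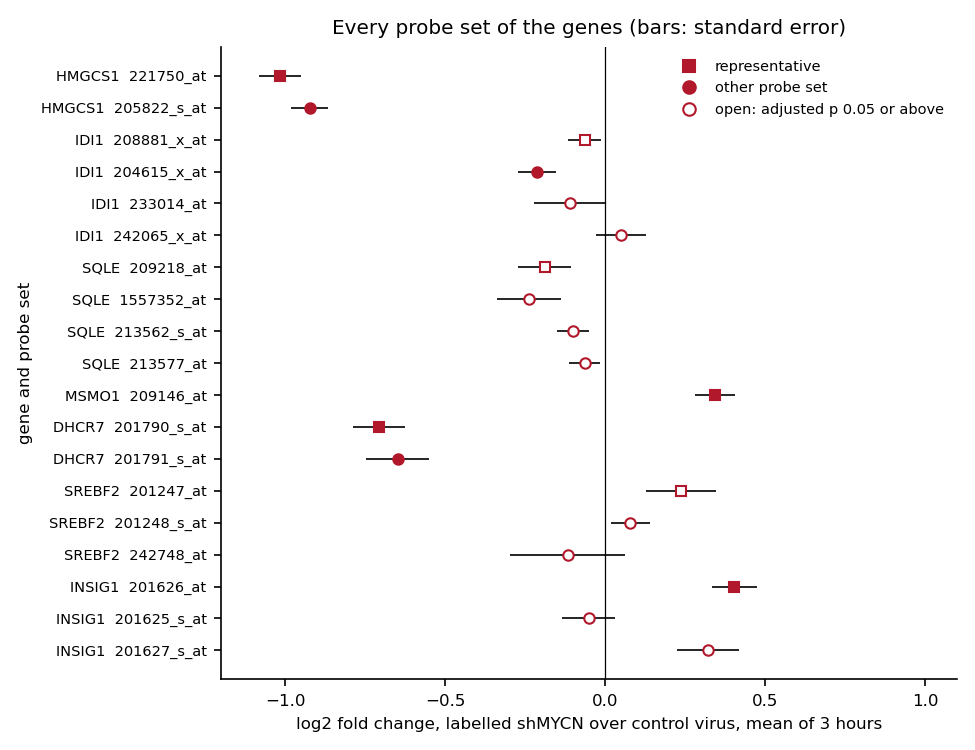
Log2 fold change of labelled shMYCN over control virus, mean of the 3 hours, for each of the 19 probe sets (bars, standard error; squares, the representative of a gene; filled, adjusted p under 0.05). Both HMGCS1 and both DHCR7 probe sets lie left of zero, and the INSIG1 probe sets lie on both sides.

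Over all 19 probe sets, 7 passed (5 lower and 2 higher), where 14.7 percent of all 41091 probe sets passed. Dim probe sets are among those 41091, whereas each of the 19 had a mean signal of 43.3 or more. The 2 shares are therefore not alike in brightness. Of the genes above the dim filter, 37.9 percent passed. On the representatives, 2 genes had all labelled shMYCN arrays above all control virus arrays and 2 had them below, against 11.7 and 8.29 percent of all genes tested. The 3 control virus arrays are single at each hour, so their spread at an hour is taken from the groups with 2 arrays.

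The difference from control virus grew with time for HMGCS1 and DHCR7. At 24 hours none of the 7 genes passed, where 0.708 percent of genes did; 3 of the 7, and 1370 of all genes, had an unadjusted p under 0.05. The nearest was HMGCS1, at -0.56 ± 0.12 (limma adjusted p = 0.0597), which passed under 5 of 20 alternatives. MSMO1 was at 0.30 ± 0.11 (0.320) and INSIG1 at 0.38 ± 0.12 (0.230), both adjusted p from limma. DHCR7 did not pass at this hour, at -0.04 ± 0.14 (limma adjusted p = 0.945).

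At 48 hours 4 of the 7 genes passed, where 17 percent of all genes did. HMGCS1 was at -1.18 (limma adjusted p = 9.32e-05) and DHCR7 at -0.80 (0.00316), whereas MSMO1 was at 0.52 (0.00876) and INSIG1 at 0.49 (0.0192). The INSIG1 call at 48 hours was lost under 2 of 20 alternatives: with its probe sets averaged it was 0.16 (limma adjusted p = 0.428, the highest of the 20, whose lowest was 0.00169), and it missed a threshold of 0.01. The other INSIG1 probe sets gave 0.21 and -0.23 at this hour. At 72 hours 3 of the 7 passed, where 34 percent of all genes did. HMGCS1 reached -1.30 ± 0.12 (limma adjusted p = 1.40e-05) and DHCR7 -1.28 ± 0.14 (5.09e-05). INSIG1 was at 0.35 (limma adjusted p = 0.0466), a call lost under 11 of 20 alternatives, whose adjusted p spanned 0.00948 to 0.261. MSMO1 was at 0.21 (limma adjusted p = 0.159) and did not pass.

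The change of the difference between 24 and 72 hours was tested directly. It passed for DHCR7, at -1.24 ± 0.20 (limma adjusted p = 0.00364), and for HMGCS1, at -0.74 ± 0.17 (limma adjusted p = 0.0184), where 5.82 percent of all genes passed in that direction. It did not pass for the other 5 genes, all of which also had negative values. The second DHCR7 probe set gave -1.74 (limma adjusted p = 0.0182) and the second HMGCS1 probe set -1.03 (limma adjusted p = 0.0168). In that fit over all probe sets, the HMGCS1 representative did not pass (limma adjusted p = 0.0690). Part of each second probe set's value came from single control virus arrays, where DHCR7 rose by 0.51 and HMGCS1 by 0.48. Within the labelled shMYCN arrays these probe sets changed by -1.23 and -0.54. The HMGCS1 call was lost without the labelled shMYCN array B at 24 hours (limma adjusted p = 0.0767, the highest over its 19 alternatives, the lowest being 0.00132), and also without A or B at 72 hours.

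Within the labelled shMYCN arrays alone, 3 of the 7 genes were called lower at 72 than at 24 hours by their representative probe sets. Of all genes 18.3 percent were. In log2 units DHCR7 fell by 1.18 ± 0.11 (limma adjusted p = 2.13e-05) and HMGCS1 fell by 0.85 ± 0.096 (limma adjusted p = 6.48e-05). IDI1 fell by 0.24 ± 0.079 (limma adjusted p = 0.0355), a call lost under 9 of 21 alternatives. SQLE did not pass by its representative, at -0.21 (limma adjusted p = 0.163), but passed under 4 of 21 alternatives. Of its other probe sets, 2 were called lower, at -0.61 (limma adjusted p = 0.00111) and -0.74 (limma adjusted p = 0.0116). The remaining SQLE probe set was at -0.07 and did not pass. HMGCS1 changed by -0.75 between 24 and 48 hours (limma adjusted p = 0.00129) and by -0.10 between 48 and 72 hours (0.535), whereas DHCR7 changed by -0.66 (0.00572) and -0.52 (0.0147). Of all genes 5.13 and 6.51 percent were lower at these steps, and the difference between the 2 genes was not tested. By their representative probe sets, none of the 7 passed between the control virus arrays at 72 and 24 hours, where 0.126 percent of genes did. None had an unadjusted limma p under 0.05 there, against 881 of all genes. The second probe sets of HMGCS1 and DHCR7 rose there, by 0.48 and 0.51, and neither passed. Their single control virus arrays read 221.3 and 315.8 for HMGCS1 and 278.1 and 403.0 for DHCR7 at 24 and 72 hours.

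**Figure D3:**
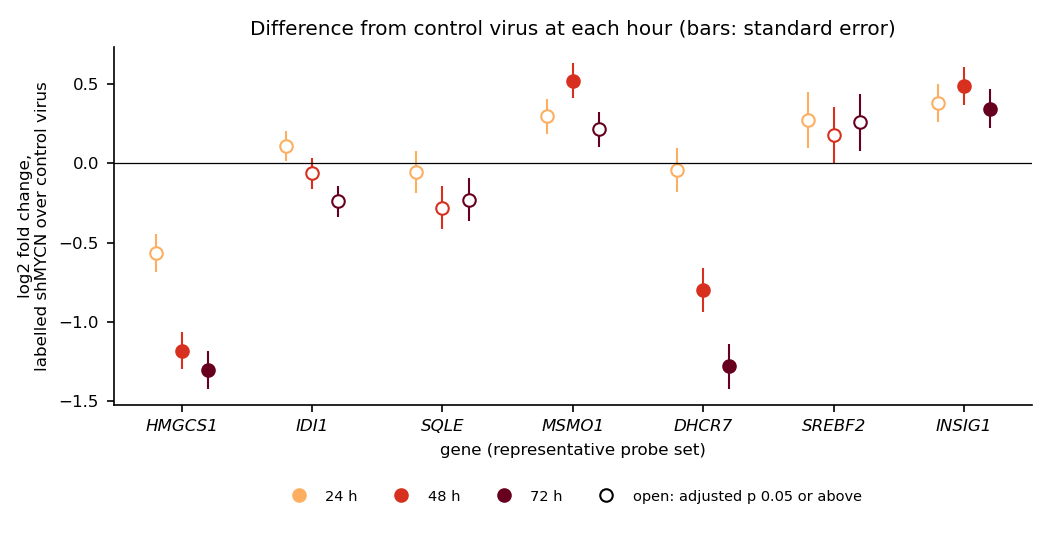
Log2 fold change of labelled shMYCN over control virus by hour for the 7 genes (bars, standard error; filled, adjusted p under 0.05). The points of HMGCS1 and DHCR7 reach -1.30 and -1.28 at 72 hours; those of MSMO1 and INSIG1 stay above zero at each hour.

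Cells that had received no virus give a second baseline, which shares the labelled shMYCN arrays with the comparison above. By their labels, the no virus arrays were all from the starting hour and the virus arrays all from later hours. Virus and hours in culture therefore differ together in every comparison with no virus, here and below. Their separate parts were not tested, because no later array lacked virus. With control virus against no virus, all 7 genes had positive values and none passed, where 0.0337 percent of all genes did; 4 of the 7, and 631 of all genes, had an unadjusted p under 0.05 (limma). The values were 0.40 ± 0.10 for DHCR7 (limma adjusted p = 0.484), 0.30 ± 0.088 for HMGCS1 (0.614), 0.23 for SQLE, 0.18 for INSIG1, 0.17 for IDI1, 0.11 for MSMO1 and 0.09 for SREBF2. On 5 of the 7 representatives and 12 of the 19 probe sets, all 3 control virus arrays lay above both no virus arrays, where 11.3 percent of all genes did so. The DHCR7 value passed only when a labelled shMYCN array at 48 hours was left out, which changes the estimated spread and not the arrays compared (limma adjusted p = 0.0325 without A, its lowest over 22 alternatives, whose highest was 1.0).

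Against no virus, the labelled shMYCN arrays had 4 of the 7 genes called, where 30.8 percent of all genes were. HMGCS1 was lower, at -0.72 ± 0.079 (limma adjusted p = 5.28e-05), INSIG1 higher, at 0.58 ± 0.081 (2.66e-04), and MSMO1 higher, at 0.46 ± 0.074 (7.73e-04). DHCR7 was lower at -0.31 ± 0.093 (limma adjusted p = 0.0265), a call lost under 8 of 22 alternatives with adjusted p up to 0.272. The probe sets of INSIG1 that disagreed against control virus were all called higher against no virus. Of all probe sets, dim ones included, 10.8 percent were called in either direction. The third INSIG1 probe set was at 0.43 here, and at 0.48 with control virus against no virus, where it was not called.

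By hour, INSIG1 and MSMO1 already differed from no virus at 24 hours, at 0.53 (limma adjusted p = 0.0210) and 0.44 (0.0328), where 1.74 percent of all genes did. HMGCS1 and DHCR7 did not pass at 24 hours, at -0.19 (limma adjusted p = 0.464) and 0.31 (0.278). HMGCS1 passed at 48 and 72 hours, at -0.93 (limma adjusted p = 5.71e-05) and -1.04 (7.29e-06). DHCR7 passed at -0.35 (limma adjusted p = 0.0449) and -0.88 (8.88e-05). INSIG1 was at 0.54 (limma adjusted p = 0.00251) and 0.69 (1.83e-04), and MSMO1 at 0.49 (0.00249) and 0.43 (0.00226), against backgrounds of 23 and 45.5 percent. SREBF2 passed at 72 hours and not at 24 or 48 hours, at 0.54 ± 0.15 (limma adjusted p = 0.0109). Its 2 arrays there were 274.6 and 357.3, above both no virus arrays and the control virus array at that hour.

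**Figure D4:**
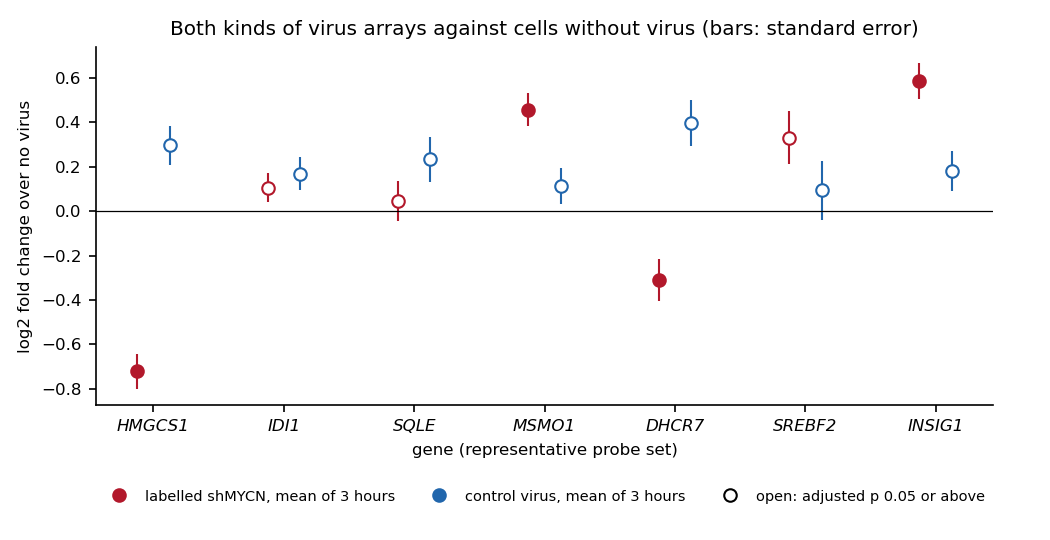
Log2 fold change over no virus of the labelled shMYCN arrays and the control virus arrays for the 7 genes, each a mean of the 3 hours (bars, standard error; filled, adjusted p under 0.05). The control virus values are all positive, at 0.09 to 0.40, and the labelled shMYCN values of HMGCS1 and DHCR7 are negative.

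The rest of the pathway was read from 7 lists holding 101 genes, the 8 above included. Of these, 85 were named and 77 passed the dim filter; the other 16 were not analysed here, and 8 were too dim. Outside the 7 genes, 21 of 70 genes were called against control virus as a mean of the 3 hours, 9 higher and 12 lower, or 30.0 percent against 37.9 percent of all genes. The counts of each list in each direction stand against 22.2 percent of all genes higher and 15.8 percent lower. Of the mevalonate arm list, 8 genes were tested and 1 was higher and 1 lower, with a median log2 fold change of -0.06. The higher one was GGPS1, geranylgeranyl diphosphate synthase, at 0.28. In the sterol arm 10 genes were tested, 1 higher and 2 lower, with a median of -0.01; the second lower gene was LBR, a nuclear membrane protein with sterol reductase activity, at -0.93 (limma adjusted p = 7.50e-06).

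The list of SREBP control had 12 genes tested, 4 higher and 2 lower (median 0.06). SCAP, the escort that carries SREBP2 towards the Golgi, was lower at -0.49 (limma adjusted p = 0.00118), and MBTPS2, a protease that frees SREBP2, was higher at 0.57 (limma adjusted p = 3.94e-05). ERLIN2, an endoplasmic reticulum protein that takes part in HMG-CoA reductase turnover, was lower at -0.48. TRIB1 and RNF145 were higher, at 0.38 and 0.21.

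Of uptake and transport, 14 genes were tested, with 1 higher, 1 lower and a median of 0.02. SCARB1, the HDL receptor, was lower at -0.37, and GRAMD1A, which moves cholesterol from the plasma membrane to the endoplasmic reticulum, was higher at 0.45. In storage, efflux and oxysterols 7 genes were tested, 2 higher and 1 lower (median 0.07). SOAT1, which esterifies cholesterol for storage, fell below control virus most in the lists: it read 215.1 and 213.0, 101.9 and 104.6, and 78.4 and 74.0 at 24, 48 and 72 hours on the labelled shMYCN arrays, against 347.4, 336.5 and 347.7 with control virus and 330.4 and 340.5 without virus. The groups did not overlap, and the SOAT1 log2 fold change was -1.40 (limma adjusted p = 1.04e-07). NCEH1, a cholesteryl ester hydrolase, was higher at 0.40, and ABCG1, a cholesterol exporter whose signal was low (13.5 to 17.3 with control virus), at 0.44.

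Of fatty acid synthesis, 13 genes were tested and 2 were higher and 2 lower (median 0.04, beside 22.2 percent of all genes higher and 15.8 percent lower): SCD5 at 0.38, ELOVL6 at 0.29, LPIN1 at -0.29 and SCD at -0.30. Of the 13 genes that use isoprenoids none was higher and 5 were lower, where 15.8 percent of all genes were lower and 37.9 percent were called either way (median -0.03): ZMPSTE24 at -0.52, DHDDS at -0.52, PDSS1 at -0.41, ICMT at -0.41 and PGGT1B at -0.24, which act in prenylated protein processing, dolichol synthesis and ubiquinone synthesis. Of the 21 genes named, 17 had other probe sets. Those came to 35, of which 30 had the same sign but only 14 were also called, and 1, for SCD5, was called in the opposite direction. MBTPS2 was at 0.09 and 0.06 on its other probe sets, PGGT1B at 0.0046 and -0.08, and SCD5 at 0.04, -0.06 and -0.37.

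**Figure D5:**
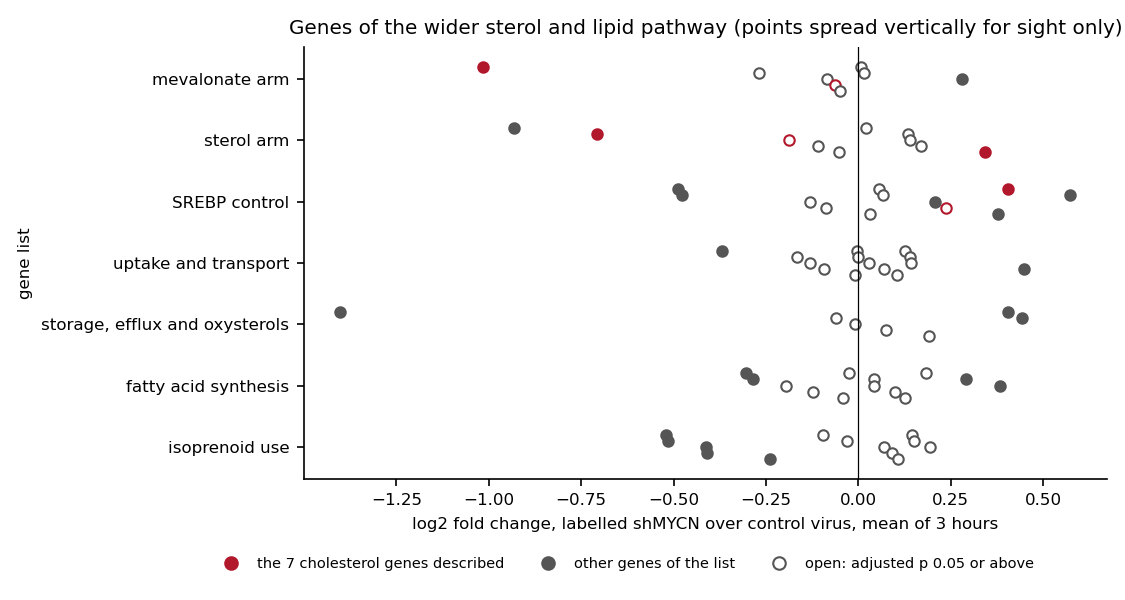
Log2 fold change of labelled shMYCN over control virus, mean of the 3 hours, for the tested genes of each list (filled, adjusted p under 0.05), with the 7 cholesterol genes described marked. Each list's median lies near zero, between -0.06 and 0.07, and SOAT1 lies lowest at -1.40.

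Genes whose pattern over the 11 arrays was most like a gene's were named by Pearson's r on log2 signals, as a description over arrays of 7 groups. For HMGCS1 they were NSD3 (r = 0.99), ZDHHC20 (r = 0.99) and KIFBP (r = 0.98), and for DHCR7 KNTC1, NOP2 and KAT7 (r = 0.97 for each). For MSMO1 they were PPM1N, RAB13 and PPARD (r = 0.95), and for INSIG1 LARP6 (r = 0.97), FILIP1L and WDR47 (r = 0.95). SQLE was nearest AP2A2 (r = 0.97), FBLN1 and EHMT2 (r = 0.92), and SREBF2 nearest CDC42BPB (r = 0.92), F12 and DICER1-AS1 (r = 0.90). IDI1 was nearest CFAP44 (r = 0.92), SFMBT1 (r = 0.88) and LSS (r = 0.87), the lanosterol synthase of the sterol arm. Among the genes themselves r was 0.87 for HMGCS1 with DHCR7, 0.94 for MSMO1 with INSIG1 and -0.74 for HMGCS1 with INSIG1.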

How the data were processed

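RNA of IMR32 cells was labelled from 4 µg with a one-cycle kit, per the labels' protocols. The authors deposited 1 linear intensity per probe set and array. Of software, MAS5 and GCOS are named, without versions, in the submitters' processing notes; background correction, detection calls and genome build are not given in the sources used here. Depth is not defined for arrays, and their number limits the precision.

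Of 54675 probe sets, 41091 had 1 gene symbol and were used, 1801 had several and 11783 were unnamed here or controls; 41043 symbols were updated through RefSeq tables. The brightest probe set (mean over all arrays) stood for each of 19775 genes, and the dimmest 40 percent, below a signal of 14.8, were left out, which kept 11865 genes and all 7 genes with probe sets. limma 3.58.1 in R 4.3.3 was fitted to log2(intensity + 16) with a mean for each of the 7 groups, eBayes with a trend, and Benjamini-Hochberg adjustment. The 4 residual degrees of freedom came from the groups with more than 1 array. Called means adjusted p under 0.05. All probe sets were also fitted. The script was tested on simulated data.

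The genes and lists were chosen with earlier results of these data known. Named genes were the 8 chosen, up to 5 called genes of each list by smallest p, and the 3 most alike in pattern for each gene; 2 more the rule always names were not analysed here. The letters A and B did not pair the arrays: their differences correlated at -0.05 to 0.10 between hours. Alternatives were the offset, scaling, dim filter, choice of probe set, trend, threshold, replicate block and leaving out each array.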

Additional observations from a re-analysis of the deposited data

Results flagged for a closer look

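The difference between labelled shMYCN and control virus changed between 24 and 72 hours for 2 of the 7 genes, as tested by the interaction of hairpin and hour. In log2 units DHCR7 changed by -1.24 (limma adjusted p = 0.00364): its difference was -1.28 at 72 hours and -0.04 at 24 hours. HMGCS1 changed by -0.74 (limma adjusted p = 0.0184): its difference was -1.30 at 72 hours and -0.56 at 24 hours. Each hour has 1 control virus array.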

How the results depend on the processing

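The HMGCS1, DHCR7, INSIG1 and MSMO1 calls averaged over the 3 hours kept their sign and passed under all 22 alternatives. In the fit of single probe sets, however, the other INSIG1 probe sets did not pass (limma adjusted p = 0.0613 and 0.764). Where a control virus array was left out, its hour dropped from the mean over hours, here and in the counts below. Of 1162 values for single genes, 1082 kept their sign and their side of the threshold, 34 lost the call, 28 gained it and 18 changed sign, none of these called. At 24 hours the count of genes called was 0, and 1 with an offset of 64, with median scaling or with the dimmest 60 percent left out, and 0 to 2 without 1 array. For control virus against no virus it was 0 to 1 without 1 array. For the change between 24 and 72 hours it was 2, 1 at an adjusted p under 0.01, and 1 to 2 without 1 array. Of the probe sets, 7 were called, and 4 to 9 without 1 array, 4 being without control virus at 72 hours. Over all genes 4500 were called, 1938 without control virus at 72 hours and 2846 at 0.01. Median scaling gave 46.3 percent of calls higher, against 58.4 percent as reported.

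Sign changes were as follows (log2). Averaged over the hours, IDI1 ranged from -0.15 to 0.024 without 1 array. At 24 hours DHCR7 was 0.14 with probe sets averaged and -0.10 to 0.014 without 1 array, SQLE was 0.030 with quantile scaling and 0.10 with probe sets averaged, and SREBF2 was -0.040 with probe sets averaged. SREBF2 in control virus against no virus was -0.086 to 0.27 without 1 array. SQLE against no virus was -0.046 with median scaling and -0.021 to 0.11 without 1 array. MSMO1 between 72 and 24 hours was 0.062 with quantile scaling and -0.071 to 0.057 without 1 array. In the change of the difference INSIG1 was -0.15 to 0.075 without 1 array, and SREBF2 was 0.012 with quantile scaling, 0.25 with probe sets averaged and -0.20 to 0.17 without 1 array. The cause of these sign changes was not tested. With the letters A and B as a replicate block, 4 genes were called against control virus and 5 against no virus, SREBF2 being the added one (limma adjusted p = 0.0464), and 4763 of all genes.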
